A study of Homo sapiens with 15 samples.

Results

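Erdafitinib given alone was compared with vehicle in tamoxifen-resistant breast cancer cells, a comparison that used 6 of the 15 RNA-seq libraries of the study. The cells were T47D, an established luminal breast cancer line that grows through the oestrogen receptor, here in a subline that resists 4-hydroxytamoxifen (4-OHT), which is tamoxifen's active metabolite. The 3 libraries treated with 5 µM erdafitinib (TR erdafitinib) and the 3 on 0.05% DMSO (TR vehicle) were chosen by their labels alone. Both groups came from resistant cells that had been kept in 2% charcoal-stripped serum, insulin and 1 µM 4-OHT, were plated for 24 h, held for 48 h in 2% charcoal-stripped serum without 4-OHT, and then treated for 120 h. Neither group therefore received 4-OHT during the treatment, although both had been maintained in it. The other groups, of 3 libraries each, were parental cells on vehicle (PAR vehicle), grown in 5% whole serum before the same starvation, and resistant cells on 1 µM 4-OHT (TR 4-OHT) or on 1 µM 4-OHT with 5 µM erdafitinib (TR combination). The labels name 1 resistant line and call the libraries biological replicates, and say no more of how they were made, so the p-values measure only the spread between these libraries, which may be technical. The series title sets the question, which is how inhibition of fibroblast growth factor receptors bears on endocrine resistance and on genes of the epithelial-mesenchymal transition.

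Erdafitinib blocks the kinase domain of the fibroblast growth factor receptors FGFR1 to FGFR4. These receptors bind fibroblast growth factors together with heparan sulphate proteoglycans and signal through the adaptor FRS2 to RAS, RAF and ERK, and ERK in turn raises its own inhibitors, the Sprouty proteins and the dual-specificity phosphatases. The interferon response, from which several called genes came, works through transcription factors that bind the interferon-stimulated response element in the promoters of antiviral genes such as MX1 and the OAS family.

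The 6 libraries held 18763258 to 28717380 counts each. Levels are given as CPM (counts relative to library size, scaled by the TMM method), and a gene with 3 counts stood at 0.104 to 0.160 CPM of the unscaled totals. Mitochondrial genes held 17.7 ± 1.77% of counts with erdafitinib and 18.9 ± 3.52% with vehicle (SD, n = 3; exact two-sided permutation test p = 0.7, where the smallest possible p was 0.1). The luminal markers KRT8, KRT18, KRT19, EPCAM, GATA3, FOXA1, SPDEF and ESR1 were all expressed, and 5 of 19 markers of immune, endothelial, fibroblast, fat and red blood cells passed the filter on low counts, with group means of at most 0.840 CPM. TR vehicle 1 stood apart from the other vehicle libraries along an axis that ran with the GC content of transcripts. Tested genes were put into 5 equal classes by GC content, and the GC-richest class (median 61.5%) lay at -1.003 from the group mean on the log2 scale there and at 0.50 in both TR vehicle 2 and TR vehicle 3. In TR erdafitinib 1, 2 and 3 these genes lay at 0.56, -0.17 and -0.39 from their group mean. In this class the median log2 difference between erdafitinib and vehicle was -0.31, with 83.6% of genes below 0, against -0.03 over all genes. The difference of -0.31 was smaller in size than the distance of TR vehicle 1 from its group mean. Whether it came from erdafitinib or from single libraries was not tested. Values refitted with a GC correction are given beside the lists and for some genes. Over all genes 8817 of 16210 lay below 0.

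Of 16210 genes tested, 7 rose and 8 fell with erdafitinib at an adjusted p under 0.05 (edgeR quasi-likelihood test, Benjamini-Hochberg over all genes), which is 0.0432% and 0.0494% of the genes. The risers were the antiviral genes MX1, OAS2, OAS3 and IFI27, the lysosomal glycoprotein gene GPNMB, the chemokine gene CXCL12 and the long noncoding RNA gene LINC00992. Those that fell included TIMP3, FN1, ALDH1A3, CRYAB, CCL28, DIO2 and ADGRA2. The erdafitinib libraries lay wholly above or wholly below the vehicle libraries for each of these 15 genes, as they did for 6.01% of all genes upward and 5.56% downward. In all, 700 genes had an unadjusted p under 0.05.

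How many genes passed depended on the libraries and on the GC content. Leaving out TR vehicle 1 gave 17 genes, and leaving out TR vehicle 2, TR vehicle 3, TR erdafitinib 1, TR erdafitinib 2 or TR erdafitinib 3 gave 4, 2, 3, 3 and 2. GPNMB and TIMP3 were called whichever of the 6 libraries was left out, and CXCL12 in 4 of the 6 cases. With the GC correction 98 genes were called, 49 higher and 49 lower (0.302% each way), and they included 13 of the 15, ADGRA2 not among them. When the fit held only the 6 libraries compared, no gene was called, and GPNMB and TIMP3 each reached an adjusted p of 0.0538.

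**Figure D1:**
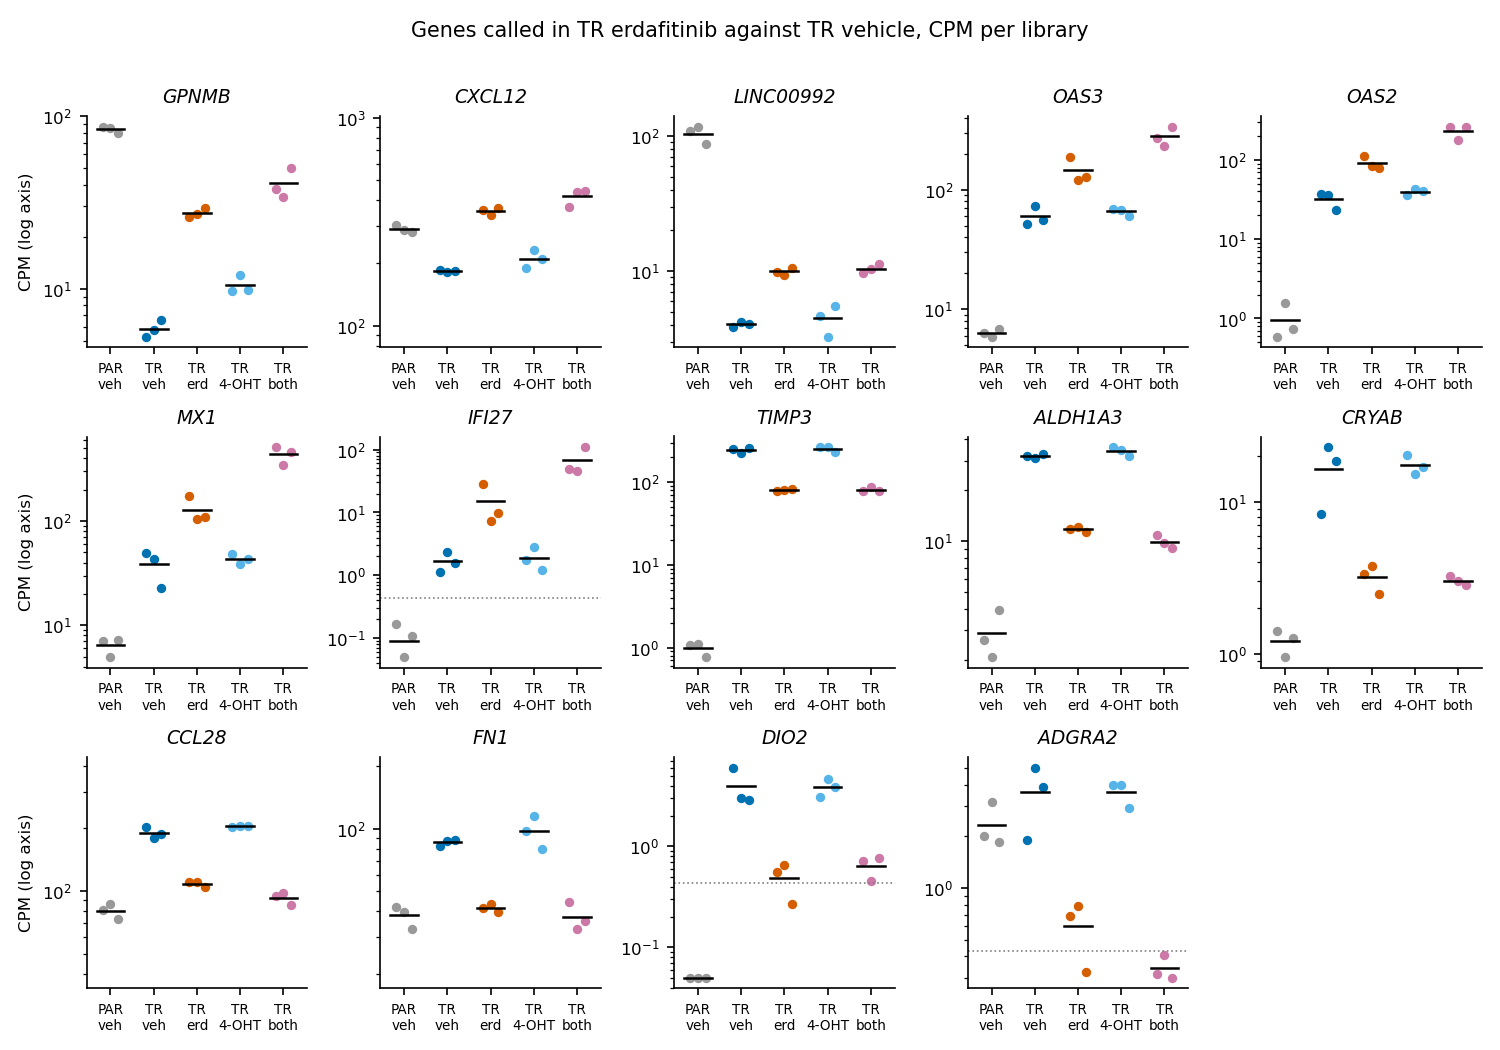
Expression in CPM (log axis) of 14 of the 15 called genes in every library of the 5 groups; points are libraries, black lines are means of 3 libraries, the dotted line is 3 counts in the shallowest library, and values below 0.05 CPM are drawn at 0.05. The 3 TR erdafitinib points lie apart from the 3 TR vehicle points in every panel.

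The receptors that erdafitinib targets were not called. FGFR2, the receptor with the highest level per kilobase in the vehicle group (4.96 CPM per kb, against 3.66 for FGFR1, 1.795 for FGFR4 and 1.29 for FGFR3), stood at 77.1, 95.4 and 107 CPM in TR vehicle 1, 2 and 3 and at 67.8, 61.8 and 55.99 CPM in TR erdafitinib 1, 2 and 3. All erdafitinib libraries were below all vehicle libraries, with a log2 difference of -0.59 (SE 0.14; adjusted p = 0.27). Under the GC correction the difference was again -0.59 and was called (adjusted p = 0.0127). FGFR1 stood at 40.4, 65.2 and 83.2 CPM on vehicle and 66.6, 50.3 and 49.98 CPM on erdafitinib, and the groups overlapped (log2 difference -0.18, SE 0.26). FGFR4 ranged more widely within the groups, at 1.65, 11.2 and 13.1 CPM on vehicle and 11.1, 5.72 and 4.24 CPM on erdafitinib, with TR vehicle 1 the lowest. For FGFR1, FGFR3 and FGFR4 the sign of the difference changed when single libraries were left out, and for FGFR3 and FGFR4 also with the GC correction.

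Across the 15 tested members of the FGF system none was called, beside 0.0432% of all genes called higher and 0.0494% called lower. Their median log2 difference was -0.28 (-0.12 with the GC correction), with 3 above 0 and 12 below. Of the 15, only FGFR2 had groups that did not overlap, and it lay wholly below, beside 5.56% of all genes. Of 11 ligand genes 2 passed the filter on low counts, and these were FGF12 and FGF13, which encode FGF-like proteins that are kept within the cell. The adaptor gene FRS2 stood at 97.7 ± 38.8 CPM on vehicle and 103 ± 12.1 CPM on erdafitinib (SD, n = 3; log2 difference 0.07). Of 8 other kinases that erdafitinib is known to bind, 3 were tested and none was called; RET, a receptor for glial-derived growth factors, stood at 7.75 ± 1.36 CPM on vehicle and 9.61 ± 1.59 CPM on erdafitinib.

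Genes that report ERK activity lay on both sides of 0 after 120 h. None of 31 tested ERK feedback genes was called, beside 0.0432% of all genes called higher and 0.0494% called lower. The median log2 difference was -0.09 (-0.041 with the GC correction), and 12 lay above 0 and 19 below. Of these genes 3 were wholly above (beside 6.01% of all genes) and 5 wholly below (beside 5.56%). DUSP6, the phosphatase that inactivates ERK in the cytoplasm, stood at 3.40, 3.07 and 3.73 CPM on vehicle and 3.51, 3.27 and 2.90 CPM on erdafitinib (log2 difference -0.07, SE 0.30). SPRY2, a Sprouty inhibitor of receptor signalling, stood at 16.7, 19.00 and 18.7 CPM on vehicle and 20.3, 19.3 and 18.2 CPM on erdafitinib (log2 difference 0.09, SE 0.20). SPRY4, another Sprouty gene, was at 3.62 ± 0.165 CPM on vehicle and 3.41 ± 0.581 CPM on erdafitinib, and the groups overlapped for all of these. The transcription factor gene ETV5, a target of FGF signalling in many tissues, stood at 3.66, 2.88 and 5.27 CPM on vehicle and 5.28, 5.69 and 5.15 CPM on erdafitinib (log2 difference 0.45, SE 0.33), and its relative ETV4 was near the detection floor at 0, 0.15 and 0.171 CPM on vehicle and 0.722, 0.477 and 0.268 CPM on erdafitinib. The phosphatase genes DUSP4 (log2 difference 0.49, all erdafitinib libraries above) and DUSP1 (-0.92, all below) lay on opposite sides of 0. The standard errors of DUSP6, SPRY2, SPRY4 and ETV5 ran from 0.20 to 0.33, so small changes were not detectable.

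**Figure D2:**
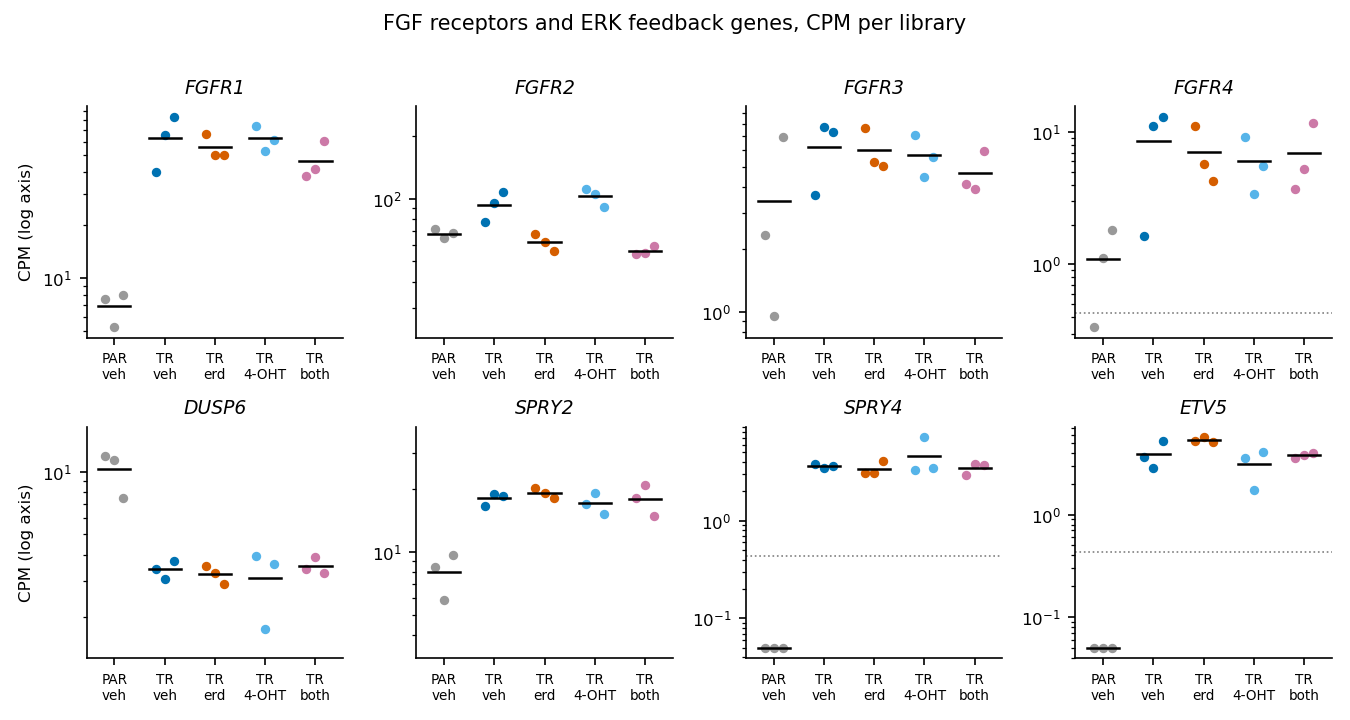
Expression in CPM (log axis) of the 4 FGF receptor genes and of 4 ERK feedback genes in every library; points are libraries, black lines are means of 3 libraries, the dotted line is 3 counts in the shallowest library, and values below 0.05 CPM are drawn at 0.05. FGFR2 is lower in all TR erdafitinib libraries than in all TR vehicle libraries, and the other 7 genes overlap between these groups.

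Antiviral genes of the interferon response made up 4 of the 7 risers. The promoters of these called genes were searched for the interferon-stimulated response element, and each gene with a promoter window is shown. OAS2, the other called member, had no window in the promoter set used. The sequences are from RefSeq on GRCh38.p14 and run 5′ to 3′ on the plus strand from 160 bases before the start of transcription through the first 25 bases from it. Capitals mark GAAA and GAAA with any 2 bases between them, or the reverse complement of that pattern. MX1 lies at chr21:41420398-41420582, OAS3 at chr12:112938314-112938498 and IFI27 at chr14:94110576-94110760; MX1 has 3 annotated starts and IFI27 has 2, and the start with the most matches is shown (the first where starts were equal).
MX1: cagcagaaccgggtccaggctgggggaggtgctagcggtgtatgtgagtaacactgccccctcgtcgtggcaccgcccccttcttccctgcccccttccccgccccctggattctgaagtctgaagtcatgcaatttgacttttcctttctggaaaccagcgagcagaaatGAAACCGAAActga
OAS3: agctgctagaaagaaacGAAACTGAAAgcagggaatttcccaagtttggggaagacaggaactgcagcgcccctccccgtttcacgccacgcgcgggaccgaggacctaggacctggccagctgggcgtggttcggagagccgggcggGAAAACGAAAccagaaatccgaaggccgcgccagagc
IFI27: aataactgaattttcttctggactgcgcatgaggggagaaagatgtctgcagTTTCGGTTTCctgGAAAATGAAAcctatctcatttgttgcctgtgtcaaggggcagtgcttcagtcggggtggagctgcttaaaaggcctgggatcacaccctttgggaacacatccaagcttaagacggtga
The match in MX1 begins 11 bases after the start, those in OAS3 begin 143 and 12 bases before it, and those in IFI27 begin 108 bases before it, on the minus strand, and 95 bases before it. Over windows from 250 bases before to 50 after any annotated start, 28 of the 52 tested interferon genes with a window held the pattern (53.8%), against 1195 of 27305 genes in the whole table (4.38%). By role, 19 of 28 antiviral effectors (67.9%) and 6 of 8 ISG15 and PARP genes held it, as did 3 of 6 nucleic acid sensors, and none of 7 receptor and kinase genes or of 3 transcription factor genes. These shares describe the genes listed and not their response to erdafitinib. A match is a description of the letters and does not show binding.

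MX1 encodes a GTPase that traps incoming viral nucleocapsids (ENSG00000157601, chromosome 21, 41420020 to 41470071). It stood at 49.9, 43.4 and 22.8 CPM on vehicle and 175, 104 and 108 CPM on erdafitinib, and it rose 3.35-fold (log2 fold change 1.74, SE 0.28; adjusted p = 0.0302). OAS2 and OAS3 encode enzymes that make the 2-5A signal for RNase L, and they lie side by side on chromosome 12 (OAS3, ENSG00000111331, 112938051 to 112976460; OAS2, ENSG00000111335, 112978395 to 113011723). OAS2 stood at 36.8, 36.2 and 23.7 CPM on vehicle and 112, 83.9 and 78.8 CPM on erdafitinib, a rise of 2.84-fold (log2 1.51, SE 0.24; adjusted p = 0.0302). OAS3 stood at 51.9, 73.2 and 56.4 CPM on vehicle and 189.7, 120.2 and 128 CPM on erdafitinib, a rise of 2.42-fold (log2 1.27, SE 0.20; adjusted p = 0.0266). In all of these TR erdafitinib 1 was the highest library. IFI27, a small interferon-induced membrane protein gene (ENSG00000165949, chromosome 14, 94104836 to 94116698), had the largest fold change of the risers, at 1.14, 2.32 and 1.57 CPM on vehicle and 28.1, 7.39 and 9.98 CPM on erdafitinib. It rose 8.96-fold (log2 3.16, SE 0.54; adjusted p = 0.0418).

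These 4 calls were lost when single libraries were left out, as were those of all called genes but GPNMB and TIMP3. Whether the loss came from the library left out or from having fewer libraries was not tested. MX1 and OAS2 were still called with TR vehicle 1 left out and with no other of the 6 libraries left out, and OAS3 and IFI27 with none of them left out. Without TR erdafitinib 1 the adjusted p of each was 0.195 and the log2 fold changes were 1.46 for MX1, 1.33 for OAS2, 1.03 for OAS3 and 2.35 for IFI27. Without TR vehicle 3 the adjusted p was 0.196 for OAS2, 0.196 for OAS3, 0.127 for MX1 and 0.361 for IFI27. Over all 6 cases the log2 fold changes ranged from 1.46 to 1.97 for MX1, 1.33 to 1.62 for OAS2, 1.03 to 1.43 for OAS3 and 2.35 to 3.49 for IFI27.

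The wider list held 71 tested interferon genes, of which 4 were called higher and none lower (beside 0.0432% and 0.0494% of all genes). Their median log2 difference was 0.57 against -0.03 over all genes, 56 lay above 0 and 15 below, and 28 had all erdafitinib libraries above all vehicle libraries (beside 6.01% of all genes), while 2 lay wholly below (beside 5.56%). Leaving out each of the 6 libraries in turn gave medians of 0.44 to 0.72. With the GC correction 14 were called higher and none lower (beside 0.302% of all genes each way), among them OAS1, IFIT1, IFI6 and PARP9, and the median was 0.59.

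By role within the pathway, the 37 antiviral effectors held all 4 calls, had a median of 0.88 and had 34 members above 0. OAS1, which encodes another enzyme of the OAS family, stood at 7.43, 7.22 and 4.31 CPM on vehicle and 26.5, 18.9 and 17.7 CPM on erdafitinib without passing (log2 difference 1.74, adjusted p = 0.0577). IFIT1, which binds viral RNA lacking a host cap, was at 42.5, 15.2 and 7.76 CPM on vehicle and 84.1, 93.1 and 68.2 CPM on erdafitinib (adjusted p = 0.258). IFI6, a membrane protein gene, was at 2.12, 3.85 and 2.19 CPM on vehicle and 32.3, 8.82 and 12.2 CPM on erdafitinib (adjusted p = 0.321). For each of OAS1, IFIT1 and IFI6 the groups did not overlap. The 11 tested genes of ISG15 conjugation and of the PARP family had a median of 0.69; DTX3L, a ubiquitin ligase that pairs with PARP9, stood at 36.2 ± 7.64 CPM on vehicle and 62.03 ± 4.86 CPM on erdafitinib.

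Among the 7 transcription factors the median was 0.27, and it was -0.14 without TR vehicle 1 or TR erdafitinib 1. The 8 tested nucleic acid sensors had a median of 0.41, and IFIH1, the sensor of long double-stranded RNA, stood at 17.2, 13.02 and 10.4 CPM on vehicle and 21.5, 21.3 and 22.1 CPM on erdafitinib. The 8 receptor and kinase genes had a median of -0.04, with -0.058 to 0.059 when single libraries were left out. None of 7 interferon genes passed the filter on low counts, and IFNB1 had 0 counts in each of the 6 libraries. Genes of antigen presentation had a median of 0.02 over 20 tested members, with 10 on either side of 0. None of them was called, beside 0.0432% of all genes called higher and 0.0494% called lower. The median was -0.19 without TR vehicle 1 and -0.21 without TR erdafitinib 1. B2M, the light chain of MHC class I, stood at 198, 223 and 203 CPM on vehicle and 319.6, 297 and 335 CPM on erdafitinib (log2 difference 0.61, adjusted p = 0.356, and 0.496 with the GC correction).

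**Figure D3:**
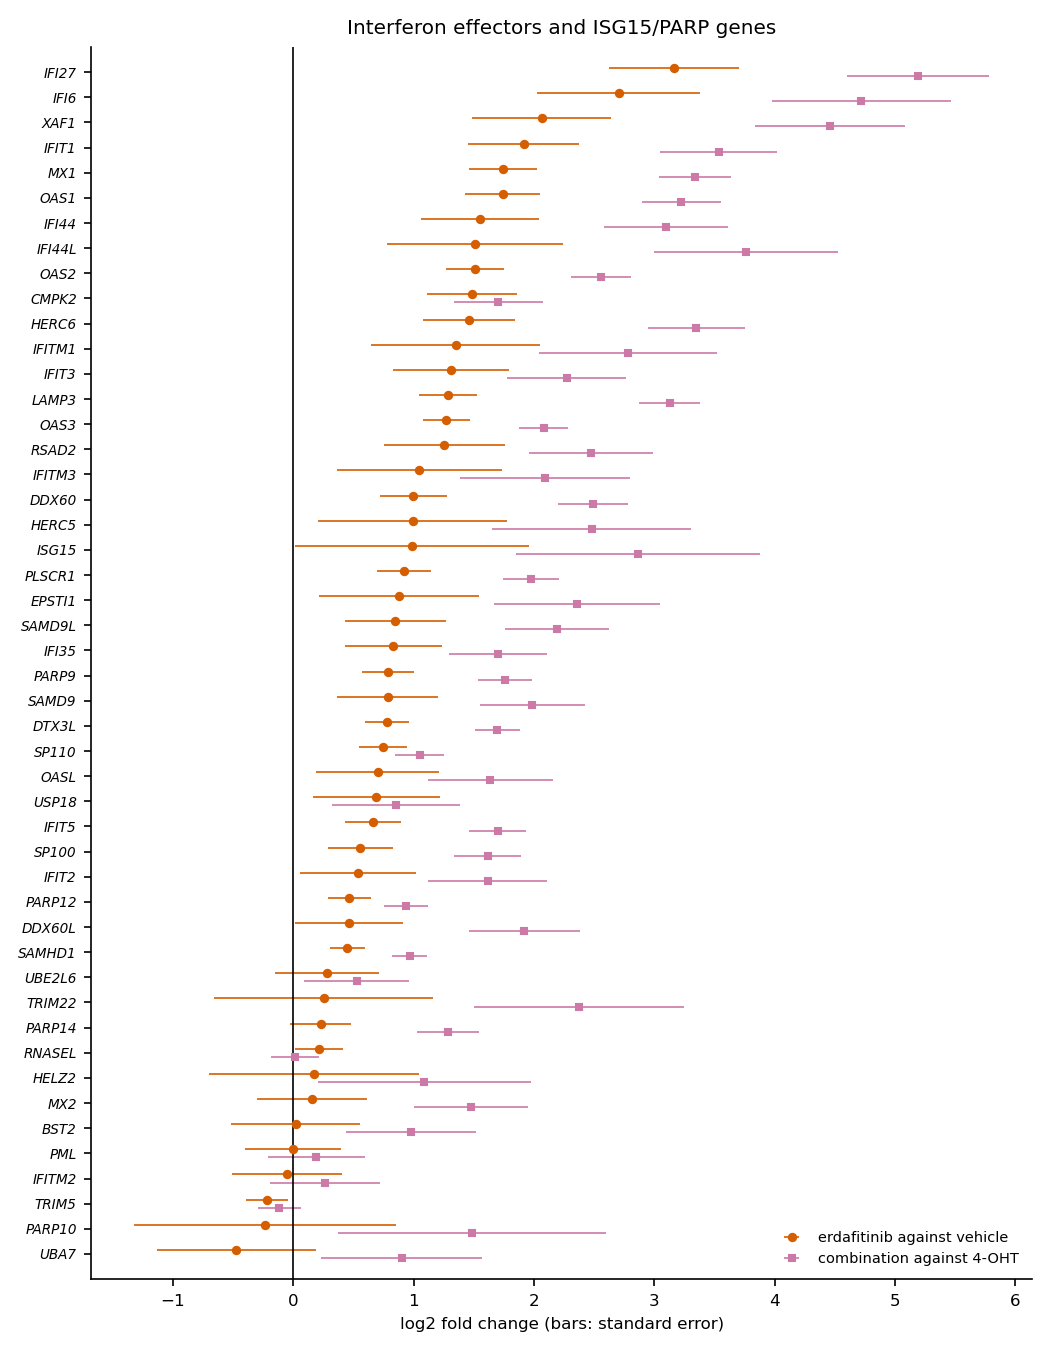
Log2 fold changes with standard errors of the tested antiviral effectors and ISG15 and PARP genes, for erdafitinib against vehicle (circles) and for the combination against 4-OHT (squares), ordered by the first. Most circles lie above 0, from -0.47 for UBA7 to 3.16 for IFI27, and the square lies to the right of the circle for all but 1 of the 48 genes.

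GPNMB had the smallest adjusted p of the 15 genes together with TIMP3. It encodes a glycoprotein of lysosomes and melanosomes and is a target of the MiT/TFE transcription factors (ENSG00000136235, chromosome 7, 23235967 to 23275108). It stood at 5.26, 5.72 and 6.57 CPM in TR vehicle 1, 2 and 3 and at 25.9, 27.1 and 29.1 CPM in TR erdafitinib 1, 2 and 3. The rise was 4.67-fold (log2 fold change 2.22, SE 0.18; adjusted p = 5.61e-05), and leaving out single libraries gave 2.16 to 2.31. The erdafitinib level was still below that of parental cells, which held 87.01, 84.98 and 80.3 CPM.

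The 36 tested genes of lysosomes and of the MiT/TFE factors held this 1 call (beside 0.0432% of all genes called higher). Their median log2 difference was 0.13, 25 lay above 0, and 6 had groups that did not overlap, all upward (beside 6.01% of all genes). The median was 0.18 with the GC correction. Regulators of mTORC1 at the lysosome, which MiT/TFE factors also induce, were among these 6. FNIP2, the folliculin-binding protein gene, stood at 12.1, 10.1 and 9.13 CPM on vehicle and 17.8, 20.03 and 19.7 CPM on erdafitinib (log2 difference 0.88, adjusted p = 0.146, and 0.0154 with the GC correction). RRAGD, which encodes a RAG GTPase, stood at 8.72, 6.25 and 5.51 CPM on vehicle and 11.2, 13.6 and 13.7 CPM on erdafitinib (log2 difference 0.91, adjusted p = 0.194, and 0.0127 with the GC correction). TPP1, a lysosomal peptidase gene, stood at 35.6, 40.4 and 37.2 CPM on vehicle and 67.3, 59.4 and 58.6 CPM on erdafitinib (log2 difference 0.71, adjusted p = 0.206, and 0.035 with the GC correction). LAMP1, a major protein of the lysosomal membrane, stood at 113, 175 and 167 CPM on vehicle and 183, 145 and 150.1 CPM on erdafitinib with overlapping groups.

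TIMP3 and FN1, 2 genes of the extracellular matrix, fell with erdafitinib. TIMP3 encodes an inhibitor of metalloproteinases that stays bound to matrix (ENSG00000100234, chromosome 22, 32801705 to 32863041). It stood at 249.9, 223 and 262 CPM on vehicle and 77.4, 80.3 and 83.2 CPM on erdafitinib. The fall was 3.05-fold (log2 fold change -1.61, SE 0.13; adjusted p = 5.61e-05), and leaving out single libraries gave -1.68 to -1.56. Parental cells held 1.09, 1.11 and 0.764 CPM. The other tested inhibitors, TIMP1 (8.61 ± 6.58 CPM on vehicle and 5.47 ± 3.98 CPM on erdafitinib) and TIMP2 (225 ± 23.1 CPM on vehicle and 191 ± 16.3 CPM on erdafitinib), had overlapping groups. Of 10 tested proteases none was called, beside 0.0432% of all genes called higher and 0.0494% called lower. The median log2 difference of the proteases was -0.33 (-0.32 with the GC correction).

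FN1 encodes fibronectin, a matrix glycoprotein bound by integrins (ENSG00000115414, chromosome 2, 215360440 to 215436073). It stood at 82.4, 87.4 and 88.4 CPM on vehicle and 41.4, 43.3 and 39.7 CPM on erdafitinib, a fall of 2.08-fold (log2 -1.05, SE 0.16; adjusted p = 0.0266). The erdafitinib level was close to that of parental cells, 41.9, 39.9 and 32.9 CPM. The libraries of each group were tight, but the call was kept only with TR vehicle 1 left out, and leaving out any other gave adjusted p of 0.0903 to 0.193 at log2 fold changes of -1.09 to -1.02.

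FN1 was the only call among 21 tested mesenchymal genes (beside 0.0494% of all genes called lower), whose median log2 difference was -0.54 with 17 members below 0 and 8 wholly below (beside 5.56% of all genes). Leaving out single libraries gave medians of -0.76 (without TR erdafitinib 1) to -0.34 (without TR vehicle 2). With the GC correction the median was -0.33 and 3 were called lower (beside 0.302% of all genes), namely FN1, SPARC and TPM1. SPARC, a collagen-binding matrix protein gene, stood at 138, 241 and 262 CPM on vehicle and 135, 112 and 94.2 CPM on erdafitinib, where TR vehicle 1 was only just above TR erdafitinib 1. TPM1, which encodes an actin-binding tropomyosin, stood at 142, 151 and 134 CPM on vehicle and 92.4, 88.3 and 80.4 CPM on erdafitinib (log2 difference -0.71, SE 0.13; adjusted p = 0.0576). VIM, the intermediate filament vimentin of mesenchymal cells, was low in all libraries at 0.774, 1.68 and 1.54 CPM on vehicle and 2.26, 1.98 and 1.77 CPM on erdafitinib, with all erdafitinib libraries above (log2 difference 0.58, SE 0.68). CDH1, the epithelial cadherin gene, stood at 1090.0, 1048 and 1119 CPM on vehicle and 954, 1036 and 1034 CPM on erdafitinib (log2 difference -0.11, SE 0.13). Of 8 transcription factors of the epithelial-mesenchymal transition 3 were tested, SNAI1, SNAI2 and TWIST1, all below 2 CPM.

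No collagen or basement membrane gene was called among 26 tested, beside 0.0432% of all genes called higher and 0.0494% called lower. Of the 26, 23 lay below 0, beside 8817 of all 16210 genes, and 7 were wholly below, beside 5.56%. The median log2 difference was -0.69, and it was -0.45 with the GC correction. The median GC content of these genes was 59.5%. In the GC-richest class (median 61.5%) 83.6% of genes lay below 0, and in the next class (median 54.98%) 60.0% did. With the GC correction 2 of 13 collagen genes and 3 of 13 laminin and linker genes lay above 0. Leaving out single libraries gave medians of the list of -0.96 (without TR erdafitinib 1) to -0.41 (without TR vehicle 3). COL5A1, a fibrillar collagen gene, stood at 11.1, 28.1 and 30.1 CPM on vehicle and 9.41, 5.65 and 4.40 CPM on erdafitinib (log2 difference -1.83, SE 0.45; adjusted p = 0.281, and 0.00235 with the GC correction). COL12A1, a collagen that decorates fibrils, had groups that did not overlap, at 639.7, 357 and 427 CPM on vehicle and 234, 304 and 291 CPM on erdafitinib (log2 difference -0.78, adjusted p = 0.599, and 0.0507 with the GC correction).

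No target of the YAP and TAZ coactivators was called, beside 0.0432% of all genes called higher and 0.0494% called lower. None of 14 tested targets lay above 0, 7 had groups wholly below (beside 5.56% of all genes), and the median was -0.39, or -0.27 with the GC correction. Leaving out single libraries gave medians of -0.64 (without TR vehicle 1, where 2 targets lay above 0) to -0.26 (without TR vehicle 3). CCN2, a matricellular growth factor gene, was at 1.86, 2.51 and 2.60 CPM on vehicle and 0.361, 0.647 and 0.268 CPM on erdafitinib (log2 difference -2.41, SE 0.57, adjusted p = 0.253, and 0.0505 with the GC correction). ANKRD1, an ankyrin repeat gene widely used as a YAP reporter, was at 6.29, 5.54 and 2.77 CPM on vehicle and 1.11, 1.02 and 1.34 CPM on erdafitinib (log2 difference -2.07, adjusted p = 0.163, and 0.0169 with the GC correction). TGFB2, the growth factor gene of the transforming growth factor beta family, was at 55.9, 37.5 and 44.3 CPM on vehicle and 19.1, 21.7 and 20.8 CPM on erdafitinib (log2 difference -1.16, adjusted p = 0.205, and 0.0048 with the GC correction). Of the 6 tested regulators 3 lay above 0 and 3 below, with a median of -0.08 (-0.0098 with the GC correction), and YAP1 itself stood at 329.7 ± 94.00 CPM on vehicle and 353 ± 35.5 CPM on erdafitinib.

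All 11 tested basal and myoepithelial genes lay below 0, 4 of them wholly below (beside 5.56% of all genes). Their median was -0.57 (-0.48 with the GC correction). None of them was called, beside 0.0432% of all genes called higher and 0.0494% called lower. Leaving out single libraries gave medians of -0.90 (without TR vehicle 1) to -0.43 (without TR vehicle 3). With the GC correction ITGA6, an integrin gene, was called lower. TRIM29, a basal epithelial marker, stood at 26.3, 50.7 and 51.5 CPM on vehicle and 26.7, 20.8 and 18.04 CPM on erdafitinib, with TR vehicle 1 low (log2 difference -0.97, adjusted p = 0.609, and 0.151 with the GC correction). TP63, the transcription factor gene of basal cells, stood at 34.9, 28.4 and 30.1 CPM on vehicle and 21.6, 22.9 and 25.8 CPM on erdafitinib. Luminal identity genes had a median of -0.15 over 18 tested members and no call, beside 0.0432% of all genes called higher and 0.0494% lower. Their median was -0.088 with the GC correction, under which KRT7, a simple epithelial keratin gene, was called lower (log2 difference -0.81, adjusted p = 0.0365; -1.02 without the correction, adjusted p = 0.926). FOXA1, a pioneer factor of luminal cells, stood at 165 ± 17.1 CPM on vehicle and 166 ± 5.00 CPM on erdafitinib. In RNA from whole cultures a lower share of cells that express a gene and less of its RNA per cell cannot be told apart.

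**Figure D4:**
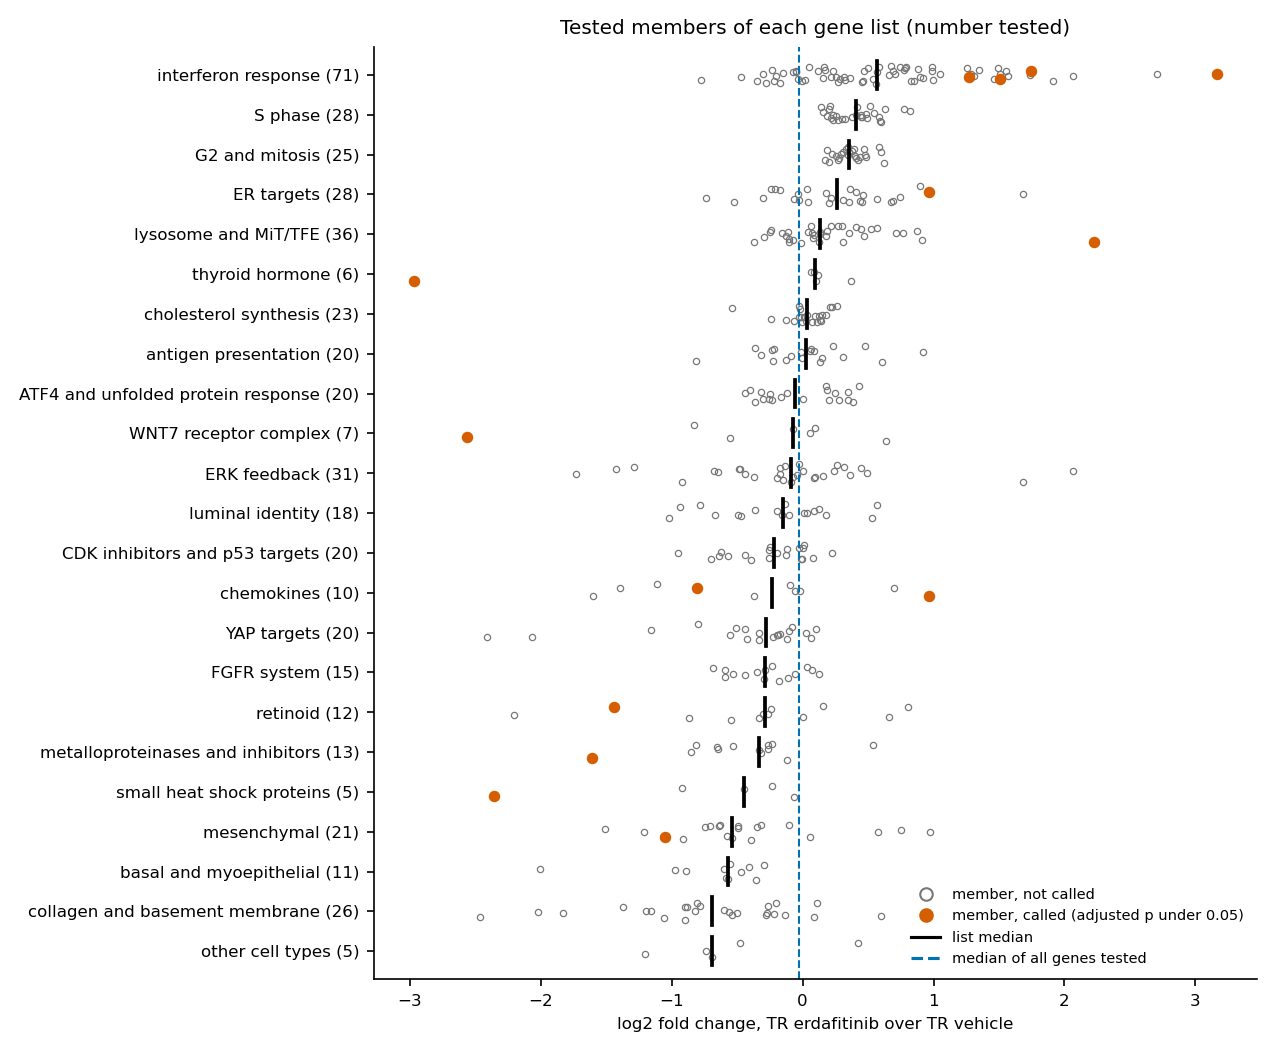
Log2 fold change of every tested member of each gene list for erdafitinib over vehicle; open points are members that were not called, filled points are called members, black bars are list medians and the dashed line is the median of all genes. The interferon list has the highest median, 0.57, and the S phase and G2 lists lie wholly above 0.

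CXCL12 was the third gene by adjusted p. It encodes the chemokine that signals through CXCR4 and is induced by oestrogen in breast cancer cells (ENSG00000107562, chromosome 10, 44370165 to 44386493). It stood at 184, 180.2 and 183 CPM on vehicle and 359, 341 and 366 CPM on erdafitinib, a rise of 1.95-fold (log2 fold change 0.96, SE 0.12; adjusted p = 0.00717). Parental cells held 305, 288 and 280.4 CPM, less than the erdafitinib libraries. Without TR vehicle 3 or TR erdafitinib 3 the adjusted p was 0.0599 and 0.0768.

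CXCL12 was the only call among 28 tested genes of the oestrogen receptor list, 26 targets and 2 receptors (beside 0.0432% of all genes called higher). Their median log2 difference was 0.26 (0.38 with the GC correction), with 19 above 0, 8 wholly above (beside 6.01% of all genes) and 1 wholly below (beside 5.56%). The targets alone had a median of 0.21 (0.27 with the GC correction), with 17 above 0 and 7 wholly above. Leaving out single libraries gave medians of the list of 0.11 (without TR erdafitinib 1) to 0.39 (without TR erdafitinib 3), with 15 to 22 above 0. ESR1, the receptor gene, stood at 251, 190.1 and 195 CPM on vehicle and 269, 293 and 309.8 CPM on erdafitinib (log2 difference 0.45, SE 0.15, adjusted p = 0.707, and 0.473 with the GC correction). GREB1, a receptor cofactor and target, stood at 11.4, 13.9 and 13.8 CPM on vehicle and 23.4, 20.4 and 19.4 CPM on erdafitinib (log2 difference 0.69, adjusted p = 0.343, and 0.0507 with the GC correction), far below the 524, 452 and 481 CPM of parental cells. PGR, the progesterone receptor gene, stood at 214, 124 and 134 CPM on vehicle and 205, 254 and 241 CPM on erdafitinib with overlapping groups, against 4679, 4145 and 2766 CPM in parental cells. CA12, a carbonic anhydrase gene and the member wholly below, stood at 497, 459.6 and 492 CPM on vehicle and 321, 347 and 341 CPM on erdafitinib (log2 difference -0.52, adjusted p = 0.258, and 0.0614 with the GC correction). With the GC correction CXCL12, MYB and PDZK1 were called higher and no member lower (beside 0.302% of all genes each way).

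CCL28, a mucosal chemokine that attracts cells with CCR10 or CCR3 (ENSG00000151882, chromosome 5, 43376645 to 43412391), went the other way. It stood at 202, 179.5 and 187 CPM on vehicle and 110.4, 109.9 and 105 CPM on erdafitinib, a fall of 1.75-fold (log2 -0.81, SE 0.11; adjusted p = 0.0134), and parental cells held 81.3, 86.7 and 73.1 CPM. The call was lost without TR vehicle 3, TR erdafitinib 1, TR erdafitinib 2 or TR erdafitinib 3, with adjusted p up to 0.105. Of 10 tested chemokine and receptor genes CXCL12 was called higher and CCL28 lower, beside 0.0432% and 0.0494% of all genes. CCL2, which attracts monocytes, stood at 5.37, 10.8 and 12.3 CPM on vehicle and 3.35, 3.00 and 3.01 CPM on erdafitinib without passing (log2 difference -1.60, adjusted p = 0.137, and 0.0324 with the GC correction). CXCR4, the CXCL12 receptor, stood at 3.61, 6.55 and 6.39 CPM on vehicle and 9.97, 9.57 and 7.36 CPM on erdafitinib (log2 difference 0.70).

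ALDH1A3, DIO2, CRYAB and ADGRA2 were each the only call in their lists, beside 0.0494% of all genes called lower, and LINC00992 was in no list. ALDH1A3, which makes retinoic acid from retinal (ENSG00000184254, chromosome 15, 100877714 to 100916626), stood at 31.98, 31.2 and 32.7 CPM on vehicle and 11.9, 12.2 and 11.3 CPM on erdafitinib. It fell 2.71-fold (log2 -1.44, SE 0.20; adjusted p = 0.0134). The call was kept without TR vehicle 1 and lost without any other of the 6 libraries, with adjusted p up to 0.0991 without TR erdafitinib 1. Parental cells held less, 2.60, 2.06 and 3.93 CPM. Of 12 tested retinoid genes it was the only call, and their median was -0.28 (-0.044 with the GC correction). The abundant retinoic acid carrier gene CRABP2 stood at 516, 1930.0 and 1962 CPM on vehicle and 1120.0, 698 and 591 CPM on erdafitinib with overlapping groups.

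DIO2 encodes the deiodinase that activates thyroid hormone (ENSG00000211448, chromosome 14, 80197526 to 80387757). It stood at 6.04, 3.03 and 2.87 CPM on vehicle and 0.558, 0.647 and 0.268 CPM on erdafitinib, and at 0 in parental cells. It fell 7.82-fold (log2 -2.97, SE 0.45; adjusted p = 0.0302), and TR vehicle 1 was the highest library. The call was lost with each of the 6 libraries left out, with adjusted p of 0.0524 without TR vehicle 1 and up to 0.195. The thyroid hormone receptor gene THRB stood at 41.1, 27.1 and 34.8 CPM on vehicle and 32.6, 36.2 and 40.4 CPM on erdafitinib with overlapping groups.

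CRYAB encodes the small heat shock protein alpha-B crystallin, which keeps unfolded proteins soluble (ENSG00000109846, chromosome 11, 111908564 to 111923722). It stood at 8.30, 22.9 and 18.4 CPM on vehicle and 3.38, 3.78 and 2.47 CPM on erdafitinib, with TR vehicle 1 well below the other vehicle libraries. It fell 5.13-fold (log2 -2.36, SE 0.33; adjusted p = 0.0134). Without TR vehicle 1 the fall was 6.38-fold (adjusted p = 0.000303), and without any other of the 6 libraries the call was lost, with adjusted p up to 0.0991. Its relative HSPB1 stood at 4.18, 39.1 and 38.9 CPM on vehicle and 28.6, 8.69 and 6.01 CPM on erdafitinib, with overlapping groups and TR vehicle 1 far below the other vehicle libraries. CRYAB was the only call among the 5 tested genes of its list (beside 0.0494% of all genes called lower). BAG3, a co-chaperone gene, stood at 46.5 ± 15.2 CPM on vehicle and 44.5 ± 7.88 CPM on erdafitinib (log2 difference -0.06, and 0.13 with the GC correction).

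ADGRA2, an adhesion receptor that relays WNT7 signals to frizzled receptors (ENSG00000020181, chromosome 8), stood at 1.91, 5.05 and 3.90 CPM on vehicle and 0.689, 0.783 and 0.322 CPM on erdafitinib. It fell 5.91-fold (log2 -2.56, SE 0.42; adjusted p = 0.0334), and with the GC correction it did not pass (log2 -2.27, adjusted p = 0.0588). The call was kept without TR vehicle 1 and lost without any other of the 6 libraries, with adjusted p up to 0.236 without TR erdafitinib 3. FZD4, a frizzled receptor of the same complex, stood at 74.6, 47.5 and 49.97 CPM on vehicle and 79.9, 90.5 and 97.5 CPM on erdafitinib (log2 difference 0.64, adjusted p = 0.501, and 0.045 with the GC correction).

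LINC00992, a long noncoding RNA gene of unknown role (ENSG00000248663, chromosome 5, 117415509 to 117546298), stood at 3.87, 4.19 and 4.10 CPM on vehicle and 9.94, 9.33 and 10.6 CPM on erdafitinib, a rise of 2.45-fold (log2 1.29, SE 0.19; adjusted p = 0.0173). The call was kept without TR vehicle 1 and lost without any other library, with adjusted p up to 0.119 without TR vehicle 3. Parental cells held 108, 117 and 86.3 CPM of it, far more than either group.

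No cell cycle gene was called, beside 0.0432% of all genes called higher and 0.0494% called lower. All 28 tested S phase genes and all 25 tested genes of G2 and mitosis had log2 differences above 0, with medians of 0.41 and 0.35 (0.46 and 0.35 with the GC correction). Of these, 10 and 5 had groups wholly above, beside 6.01% of all genes. Leaving out single libraries gave medians of 0.33 to 0.53 for S phase and 0.27 to 0.48 for G2 and mitosis, with at least 23 and 24 members above 0. The genes called higher with the GC correction were MCM10, POLA1 and CCNE2 of S phase and FOXM1 of G2 and mitosis (beside 0.302% of all genes). MCM10, which helps start DNA replication, stood at 46.5, 43.9 and 36.9 CPM on vehicle and 65.1, 76.8 and 82.6 CPM on erdafitinib (log2 difference 0.82, SE 0.18; adjusted p = 0.2, and 0.0127 with the GC correction). CDC6, which loads the replicative helicase, stood at 38.4, 37.5 and 30.7 CPM on vehicle and 51.3, 54.3 and 59.6 CPM on erdafitinib (log2 difference 0.63, adjusted p = 0.362, and 0.0632 with the GC correction). FOXM1, the transcription factor gene of mitotic entry, stood at 28.7, 56.8 and 49.1 CPM on vehicle and 80.5, 64.3 and 59.5 CPM on erdafitinib (log2 difference 0.60, adjusted p = 0.853, and 0.67 with an adjusted p of 0.041 with the GC correction).

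Among 20 tested inhibitors of cyclin-dependent kinases and p53 targets 16 lay below 0, beside 8817 of all 16210 genes. Of the 20, 4 lay wholly below, beside 5.56% of all genes. Their median was -0.22 (-0.13 with the GC correction). None of them was called, beside 0.0432% of all genes called higher and 0.0494% called lower. CDKN2B, which encodes the CDK4 and CDK6 inhibitor p15, stood at 56.3, 56.9 and 56.7 CPM on vehicle and 30.2, 29.6 and 28.02 CPM on erdafitinib (log2 difference -0.95, SE 0.18, adjusted p = 0.102, and 0.366 with the GC correction). BTG2, an antiproliferative p53 target, stood at 38.4, 34.6 and 35.1 CPM on vehicle and 21.1, 23.9 and 24.6 CPM on erdafitinib (log2 difference -0.64, adjusted p = 0.355, and 0.0523 with the GC correction). In both the libraries of a group were tight and the groups did not overlap. Cholesterol synthesis genes (median 0.04 over 23) and genes of ATF4 and the unfolded protein response (median -0.06 over 20) held no call, beside the same shares. These medians were 0.15 and 0.086 with the GC correction. The cholesterol median turned below 0 without TR vehicle 1 or TR erdafitinib 1, and over all alternatives the ATF4 median ran from -0.14 to 0.10.

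The same drug step was also measured with 4-OHT present, by comparing TR combination with TR 4-OHT, which share no library with the groups above. There 48 genes rose (0.296% of those tested) and 56 fell (0.345%); leaving out each of its 6 libraries in turn gave 45 to 63 calls, the fewest without TR combination 3. All 15 genes called without 4-OHT were among these 104 and went the same way, so the overlap was 100% of the shorter list and 14.4% of the longer. Both steps came from the same fit over all 15 libraries, which shared each gene's spread between them, so the calls were not independent. When each fit held only the groups compared, 0 genes were called without 4-OHT and 65 with it. With no call in the first step, the overlap could not be measured there. Each of the 104 had the same sign of difference in erdafitinib against vehicle. Of the 89 that were called with 4-OHT present and not without it, 80 had erdafitinib libraries wholly above or wholly below the vehicle libraries in that direction, beside 6.01% and 5.56% of all genes.

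The test of the difference between the steps called no gene with edgeR's quasi-likelihood method, where 134 genes had an unadjusted p under 0.05; with DESeq2 it called 1. In 11 of the 15 genes the change was larger with 4-OHT present. MX1 stood at 48.1, 38.5 and 43.6 CPM with 4-OHT and 515, 345 and 457 CPM with both drugs, a log2 fold change of 3.34 (SE 0.30) beside 1.74 (SE 0.28) without 4-OHT. IFI27 stood at 1.75, 2.81 and 1.21 CPM with 4-OHT and 48.2, 44.8 and 109.6 CPM with both drugs, a log2 fold change of 5.19 (SE 0.59) beside 3.16. Over the 71 interferon genes the median was 1.64 with 4-OHT present and 0.57 without it, with 25 calls and 4, all higher (beside 0.296% and 0.0432% of all genes). TIMP3 stood at 266, 263 and 233 CPM with 4-OHT and 77.5, 86.6 and 77.3 CPM with both drugs (log2 -1.66, SE 0.13, beside -1.61). GPNMB rose by 1.96 on the log2 scale there (SE 0.17) beside 2.22. FGFR2, not called without 4-OHT, fell there by 0.87 on the log2 scale (SE 0.14; adjusted p = 0.0104). With 4-OHT present 4 of 21 mesenchymal genes, 3 of 20 YAP list genes, 2 of 11 basal genes and 1 of 26 collagen or basement membrane genes were called lower, beside 0.345% of all genes. Of 36 lysosome list genes 3 were called higher, beside 0.296% of all genes.

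The gene that DESeq2 called for the difference was LAMP3, a lysosomal membrane protein gene induced by interferon. It stood at 16.1, 13.5 and 9.71 CPM on vehicle, 35.9, 26.9 and 33.1 CPM on erdafitinib, 12.9, 8.65 and 12.6 CPM on 4-OHT and 105, 74.4 and 121 CPM on both. The log2 difference was 1.29 without 4-OHT (adjusted p = 0.0787, and 0.15 with the GC correction) and the log2 fold change was 3.13 with it, and they differed by 1.84. The edgeR test of the same difference had an unadjusted p of 8.67e-05 and an adjusted p of 1.

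**Figure D5:**
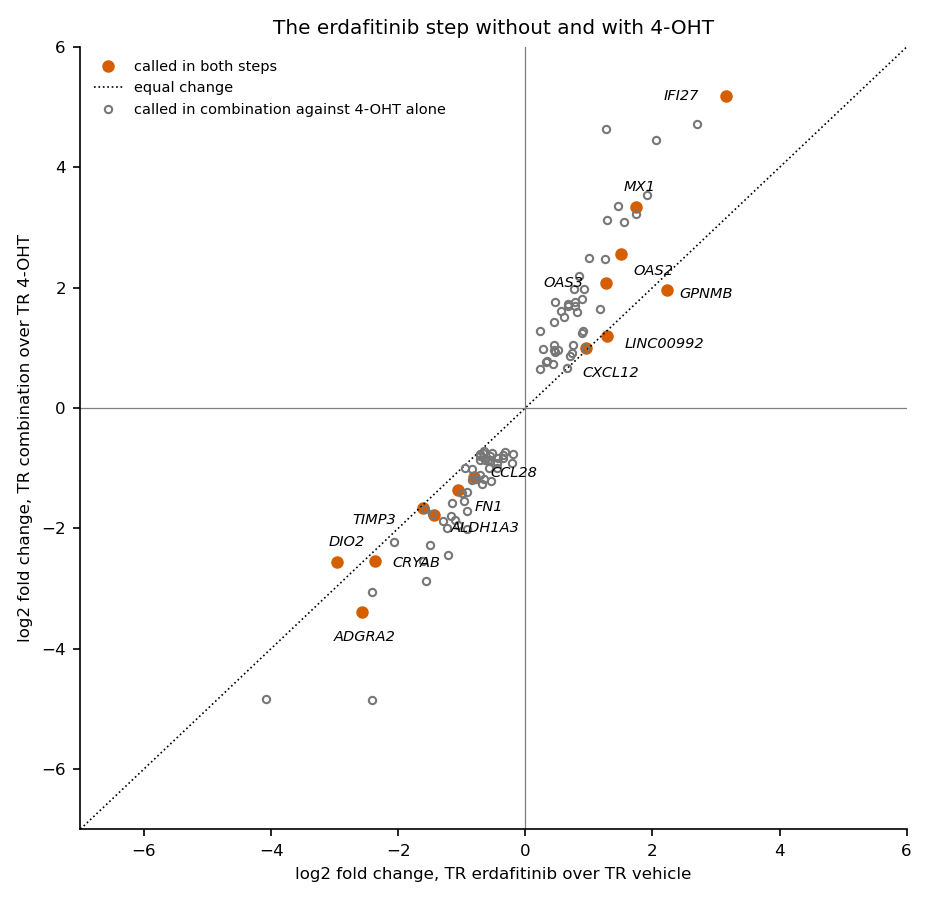
Log2 fold change of erdafitinib against vehicle (horizontal axis) and of the combination against 4-OHT (vertical axis) for genes called in either; filled points with names are 14 of the 15 genes called in both, open points are called in combination against 4-OHT alone, and the dotted line marks equal change. All points have the same sign on both axes, and the antiviral genes MX1, OAS2, OAS3 and IFI27 lie above the line.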

How the data were processed

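RNA was sequenced in 15 libraries, of which 6 form the main comparison. Alignment by the authors used HISAT2 2.1.0 and GRCh38, which the submitters' processing notes list. The deposited values are raw counts per gene. The command in each file's header, that is, per the file headers, is featureCounts 2.0.1 for read pairs on the reverse strand and Ensembl release 104; the processing notes give featureCounts 1.4.6-p1. Read trimming is not given in the sources used here. Of 60664 gene IDs, 60463 had a symbol, and 98.91% of tested genes had a GC content, from GENCODE 29.

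Totals were 6946684 to 28717380 counts (median 22304029). Within groups, libraries differed beyond counting noise (chi-square per gene 8.05 to 164), so none was counted as a copy. Intervals and floors of 3 counts cover counting error only. Counts were fitted in R 4.3.3 with edgeR 4.0.16: filterByExpr on the 5 groups (16210 genes kept, 44454 left out), TMM factors of 0.907 to 1.102, a mean per group over all 15 libraries without a block, 10 residual degrees of freedom, a common coefficient of variation of 30.8%, and Benjamini-Hochberg adjustment with calls at 0.05. Standard errors were derived from the F statistic. CPM values use TMM-scaled totals.

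Members and gene lists were chosen with earlier results of these data known. The text names the called genes, FGFR1 to FGFR4, DUSP6, SPRY2, SPRY4, ETV4, ETV5, ESR1, PGR, GREB1, VIM and CDH1, list members (from the 3 with the smallest p in each list, or chosen after their values were seen), and the 10 uncalled genes with the smallest p in each direction at an average log2 CPM of at least 1. A called gene and an uncalled list member are not reported here by name. Lists are described by counts and medians and were not tested. The GC correction fits a smooth trend of counts on transcript GC content per library. The alternatives were DESeq2 1.42.0, other size factors, other filters, a replicate block, a within-group axis, a 1.5-fold test, fewer groups and left-out libraries. On simulated counts over 16210 genes the erdafitinib against vehicle test found 67.1% of changes of 4-fold, 13.8% at 2-fold and 0.833% at 1.5-fold. It made 10 false calls in total there. The simulation drew each gene independently, without the shared axis that ran with GC content, so these shares may not hold for the data.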

Additional observations from a re-analysis of the deposited data

How the results depend on the processing

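All 15 called genes kept their direction under every alternative run. The count of genes called in erdafitinib against vehicle, 15 as reported, was 87 with DESeq2 (all 15 among them), 26 without a filter on low counts (all 15), 277 with the within-group axis as a covariate (all 15), 98 with the GC correction, 72 with the GC correction and the replicate block, 2 in the test against a 1.5-fold change (GPNMB and TIMP3) and 0 with only the compared groups in the fit (866 at an unadjusted p under 0.05), and leaving out each library gave 2 to 17. The count for the combination against 4-OHT, 104 as reported, was 288 with DESeq2, 746 with the axis, 348 with the GC correction, 297 with the GC correction and the block and 65 with only the compared groups, and leaving out each library gave 45 to 63. The difference between the steps had 0 genes under all alternatives but DESeq2, which gave 1. Leaving out the 2 shallowest libraries, chosen after seeing the data, gave 15 genes, 11 of them the same. With the replicate number as a block 9 genes were called, all among the 15. Same-numbered vehicle and erdafitinib libraries did not deviate together (correlations of -0.827, -0.386 and -0.63). The axis that ran with GC content held 49.5% of the variance within groups, so these correlations cannot tell whether the numbers mark pairs. Of the genes chosen by the naming rule, 5 changed sign, all uncalled. Of the other uncalled list members whose values are given, BAG3 changed sign with the GC correction, and BAG3, FRS2, FOXA1, YAP1 and LAMP1 did so under at least 1 alternative. FGFR3 and FGFR4 were 0.22 and 0.16 with the GC correction, and 0.23 and 0.22 with the correction and block. Leaving out each library gave -0.41 to 0.072 for FGFR1 (above 0 without TR vehicle 3), -0.33 to 0.12 for FGFR3 (above 0 without TR vehicle 2, TR vehicle 3, TR erdafitinib 2 or TR erdafitinib 3), -0.80 to 0.13 for FGFR4 (above 0 without TR vehicle 3), -0.27 to 0.51 for FLT4 (below 0 without TR vehicle 1 or TR erdafitinib 1) and -0.062 to 0.24 for THRB (below 0 without TR vehicle 2). The cause was not tested. ETV4 lay near 3 counts in several libraries, and DIO2 and ADGRA2 were below 1 CPM on erdafitinib, where depth limits the precision.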

Other observations

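Beyond the lists, the uncalled genes with the smallest p included the following. PTGS1, which encodes cyclooxygenase-1, stood at 28.2, 25.8 and 43.8 CPM on vehicle and 10.6, 11.7 and 12.9 CPM on erdafitinib (log2 difference -1.48, SE 0.26; edgeR adjusted p = 0.0537), and at 0.252, 0 and 0.0728 CPM in parental cells. MIR205HG, the host transcript of a microRNA of basal epithelium, stood at 48.1, 48.3 and 52.3 CPM on vehicle and 29.1, 27.1 and 26.5 CPM on erdafitinib (log2 difference -0.85, adjusted p = 0.063). PADI3, a peptidylarginine deiminase gene of hair follicles and skin, stood at 16.8, 34.01 and 41.6 CPM on vehicle and 13.6, 9.67 and 7.78 CPM on erdafitinib (log2 difference -1.57, adjusted p = 0.186). SAT1, which acetylates spermidine and spermine for breakdown, stood at 179, 169 and 164 CPM on vehicle and 99.2, 110.5 and 104 CPM on erdafitinib (adjusted p = 0.162), and IL32, a cytokine gene, at 2.53, 5.42 and 4.55 CPM on vehicle and 0.984, 0.92 and 0.859 CPM on erdafitinib (adjusted p = 0.128). ZNF710-AS1, an antisense transcript counted by strand, stood at 19.2, 23.3 and 23.1 CPM on vehicle and 12.3, 11.7 and 10.9 CPM on erdafitinib (adjusted p = 0.2).

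On the higher side, PEG10, a retrotransposon-derived imprinted gene, stood at 148, 102 and 106 CPM on vehicle and 208, 222 and 254 CPM on erdafitinib (log2 difference 0.94, adjusted p = 0.102). LRRC15, a leucine-rich repeat membrane protein gene, stood at 231, 299 and 306 CPM on vehicle and 576, 489 and 504 CPM on erdafitinib (log2 difference 0.91, adjusted p = 0.137) and was nearly silent in parental cells, at 0.168, 0.476 and 0.182 CPM. NCR3LG1, which encodes the ligand B7-H6 of a natural killer cell receptor, stood at 19.96, 10.6 and 12.6 CPM on vehicle and 33.3, 35.5 and 43.4 CPM on erdafitinib (log2 difference 1.38, adjusted p = 0.165). NIBAN1, a stress-responsive gene, stood at 108, 88.6 and 91.7 CPM on vehicle and 142, 149.9 and 159 CPM on erdafitinib, below the 600.2, 560.2 and 501 CPM of parental cells, and MTARC1, a mitochondrial reductase gene, at 6.24, 5.99 and 4.55 CPM on vehicle and 10.1, 11.00 and 12.9 CPM on erdafitinib. ENSG00000287354, which has no symbol, stood at 4.44, 4.08 and 5.06 CPM on vehicle and 8.30, 10.6 and 11.3 CPM on erdafitinib.

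The GC correction, the within-group axis as a covariate and DESeq2 each called more genes than the 15. All of them together called 56 genes, 13 of which were among the 15, leaving 18 higher and 25 lower. Among these were MIR205HG, PEG10, PADI3, LRRC15, NCR3LG1, PTGS1, IL32 and SAT1, whose values are given above. They also held VTCN1, which encodes the T cell inhibitor B7-H4, at 60.6, 52.04 and 46.7 CPM on vehicle and 34.2, 33.5 and 34.3 CPM on erdafitinib (log2 difference -0.69 with the GC correction, adjusted p = 0.00529). NTN4, a netrin gene of basement membranes, stood at 273, 242 and 252 CPM on vehicle and 137, 141 and 134 CPM on erdafitinib (-0.92, adjusted p = 0.00808), and BACE2, a membrane protease gene, at 94.6, 95.7 and 96.5 CPM on vehicle and 64.2, 67.1 and 63.7 CPM on erdafitinib (-0.57, adjusted p = 0.0157). VTCN1, NTN4 and BACE2 were chosen after their values were seen.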
